A study of Schizosaccharomyces pombe with 9 samples.

Results

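The small nucleolar RNAs (snoRNAs) of fission yeast other than U3 were examined in PAR-CLIP libraries of the histone deacetylase Clr3. Members were the genes of biotype snoRNA in the RefSeq annotation, without the U3 copies snu3 and snu32. There were 64 such genes among 12606 nuclear genes, of which 57 give a mature snoRNA and 7 are primary transcripts that contain mature ones. The annotation names 19 of the 57 mature snoRNAs as box H/ACA and 1, snoZ30, as box C/D, and it names no class for 37. A called position was a row of the authors' tables on the sense strand inside a member.

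The 2 crosslinked replicates and the 1 library made without crosslinking came from Schizosaccharomyces pombe with clr3-3HA-TAP::kan MX, and both kinds shared the background h+, ura4-delta18, leu1-32, ade6-M216 and imr1R(NcoI)::ura4+. Clr3 is the deacetylase of SHREC, a complex that silences heterochromatin, and here it carried the tandem affinity tag by which RNA was recovered. Cells grew at 30 °C in 10 mg/l uracil with 4% glucose and took up 4-thiouracil, at 100 µM and then a further 900 µM, over 4 h. Crosslinked cells received 12 J/cm2 at 365 nm. A crosslinked 4-thiouridine is copied into cDNA as if it were C, so a T-to-C conversion marks the crosslinked base, and RNase T1, which cuts after G, trimmed the RNA. The no-crosslink status rests on the sample's title and the series design, because its protocol text, shared with the crosslinked samples, mentions irradiation. No library from untagged cells was analysed here, so contacts of Clr3 and contacts of other proteins on the beads cannot be told apart. The 6 RNA-seq samples of the series, 3 wild type and 3 seb1-1, were not analysed here. Since the labels do not call the replicates separate cultures, the SD between them may be technical.

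SnoRNAs guide the chemical modification of ribosomal and spliceosomal RNA in the nucleolus. Box C/D snoRNAs carry a box C near the 5′ end and a box D near the 3′ end, bind fibrillarin with its partners and direct methylation of the ribose. Box H/ACA snoRNAs fold into hairpins that end in an ANANNA box and an ACA near the 3′ end, bind the pseudouridine synthase Cbf5 and direct conversion of uridine to pseudouridine. A few, such as U14 and U17, act in the cleavage of the ribosomal precursor rather than as guides alone. Many are released from introns or from longer precursors, and the mature RNAs are stable and abundant.

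The sequences below are a selection from the snoRNAs whose called positions recurred or were the most converted. They show where along the RNA the converted bases lie, and not every snoRNA with a shared position is included. They were read from RefSeq assembly ASM294v3, at coordinates that match the authors' nuclear positions, and run 5′ to 3′ as DNA letters of the sense strand. Capitals mark each T that was called in either crosslinked library.
snoZ8, I:526726-526803, plus strand: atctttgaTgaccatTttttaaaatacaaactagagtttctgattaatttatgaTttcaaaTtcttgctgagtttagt
snr79, I:2705950-2706037, plus strand: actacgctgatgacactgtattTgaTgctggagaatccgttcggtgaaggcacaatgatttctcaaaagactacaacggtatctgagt
snR70, I:1200394-1200501, plus strand: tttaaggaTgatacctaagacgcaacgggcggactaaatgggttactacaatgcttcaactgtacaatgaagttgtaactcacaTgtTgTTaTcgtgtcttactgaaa
snoZ16, I:1234963-1235045, plus strand: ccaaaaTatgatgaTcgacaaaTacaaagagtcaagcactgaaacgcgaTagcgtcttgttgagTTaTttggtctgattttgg
snoZ7, I:526937-527036, plus strand: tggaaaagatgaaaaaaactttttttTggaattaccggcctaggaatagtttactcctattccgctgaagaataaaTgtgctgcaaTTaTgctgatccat
snoR39a, I:1712996-1713071, plus strand: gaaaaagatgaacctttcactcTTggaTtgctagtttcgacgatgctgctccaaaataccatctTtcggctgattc
sno52, I:339548-339642, minus strand: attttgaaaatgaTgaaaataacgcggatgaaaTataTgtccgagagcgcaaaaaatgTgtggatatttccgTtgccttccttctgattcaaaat
snoU24b, I:2440336-2440418, plus strand: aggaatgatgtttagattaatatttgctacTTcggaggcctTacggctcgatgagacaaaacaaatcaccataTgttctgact
snR3, II:884166-884332, minus strand: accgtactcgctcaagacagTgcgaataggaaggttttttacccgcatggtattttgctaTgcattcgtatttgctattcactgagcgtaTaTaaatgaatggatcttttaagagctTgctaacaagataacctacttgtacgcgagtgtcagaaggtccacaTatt
Of the RNAs over 300 nt, only stretches around a position that both replicates called, or called within 3 nt of each other, are shown.
snR30 nt 1 to 79, I:3394875-3394953, plus strand: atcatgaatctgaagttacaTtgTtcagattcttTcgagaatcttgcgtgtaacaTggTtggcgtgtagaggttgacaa
snR30 nt 94 to 134, I:3394968-3395008, plus strand: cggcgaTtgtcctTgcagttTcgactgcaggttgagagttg
snoR61 nt 135 to 178, II:3874729-3874772, minus strand: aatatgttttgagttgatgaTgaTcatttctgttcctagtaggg
snoR61 nt 485 to 525, II:3874382-3874422, minus strand: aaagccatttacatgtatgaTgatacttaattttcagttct
snR90 nt 266 to 309, I:4937086-4937129, minus strand: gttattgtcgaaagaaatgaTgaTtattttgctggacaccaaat
In snR70 and snoZ7 most called positions gather before the last box D letters (CTGA). For snoZ7 this rests on crosslinked replicate 1, because crosslinked replicate 2 called nt 77 alone. Another called position of snR70 lies in GGATGA, which differs from the box C letters TGATGA by 1 base. In snr79 the T with the most conversions, at nt 26 of 88, follows the bases GA. In sno52 the T with the most conversions in crosslinked replicate 1, at nt 38 of 95, follows TA. In crosslinked replicate 2 that T had 4 conversions, fewer than the other sno52 positions called there.

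The snoRNAs held 84 and 70 called positions in crosslinked replicates 1 and 2, against 7 in the no-crosslink library. Those positions had 447 and 274 conversions among 26294 and 14208 reads after crosslinking, against 21 conversions among 935 reads without it. As a share of all nuclear conversions, the snoRNAs took 2.41% in crosslinked replicate 1 (Wilson 95% interval 2.20 to 2.64) and 2.57% in crosslinked replicate 2 (2.28 to 2.89), against 2.37% in the no-crosslink library (1.56 to 3.60). The crosslinked mean was 2.49% ± 0.111 (SD, n = 2), and both crosslinked values lay inside the interval of the library without crosslinking. Transfer RNAs took 62.0% of the conversions in the no-crosslink library. With ribosomal and transfer RNA left out of the total, the snoRNA share was 3.10% (2.83 to 3.40) and 3.25% (2.89 to 3.65) in the crosslinked libraries and 6.29% (4.15 to 9.42) in the no-crosslink library. The no-crosslink library lists no position with fewer than 2 conversions. With that minimum applied to every library and all RNAs kept, the crosslinked shares were 2.95% (2.69 to 3.23) and 3.60% (3.20 to 4.04), both above the 2.37% (1.56 to 3.60) without crosslinking, with intervals that meet. With the minimum and without ribosomal and transfer RNA, the crosslinked shares were 4.05% (3.69 to 4.43) and 5.11% (4.55 to 5.73), against the same 6.29% without crosslinking. The share of the snoRNAs was thus not higher after crosslinking than without it, beyond the counting intervals, under any of these totals. Without ribosomal and transfer RNA, and with no minimum of conversions, it was lower in both crosslinked libraries, with intervals that do not meet that of the no-crosslink library. With 2 libraries against 1, no exact permutation test can give a p below 1 in 3, and none was run. Only called positions are listed, so library depth is unknown. The intervals cover counting error only.

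Called positions in snoRNAs rested on more reads than most calls in these libraries. The median snoRNA position had 210.5 and 128 reads in crosslinked replicates 1 and 2 and 144 reads in the no-crosslink library. Over all nuclear positions the median was 3 reads in each crosslinked library. Only 1 snoRNA position in each crosslinked library had a single conversion, in snoR61 and in snR101, whereas 51.8% and 65.1% of all nuclear positions did. The converted share of reads at a snoRNA position had a median of 1.91% and 2.95% in crosslinked replicates 1 and 2, against 2.78% in the no-crosslink library. The lowest value at which a snoRNA position was called was 0.897% of reads, in snoR61 and snoU24b of crosslinked replicate 2. A snoRNA with fewer conversions than the authors' threshold is not listed, so a gene without a position is not shown to lack conversions. The 21 bases around each of the 135 distinct snoRNA positions match the genome once, and no pair of snoRNAs shares a run of 15 bases or more.

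Of the 57 mature snoRNAs, 30 had a called position in both crosslinked libraries, which is 52.6%. Over all annotated nuclear genes this share was 13.2%, over protein-coding genes 29.9% and over transfer RNA genes 29.8%. It was 100% for the 2 U3 copies and for the 6 snRNA genes. A position of at least 2 conversions in both libraries was found in 4.24% of all annotated nuclear genes and in all 30 of these snoRNAs. The snoRNA share thus lay above that of all annotated, protein-coding and transfer RNA genes and below that of U3 and snRNA genes. SnoRNA calls also rested on more reads than most calls, and how much depth contributes was not tested. A further 4 snoRNAs had positions in crosslinked replicate 1 alone, 5 in crosslinked replicate 2 alone and 1, sno12, in the no-crosslink library alone. The remaining 17 had none in any library. With only calls of p at most 0.001 in the authors' tables, 15 snoRNAs had a position in both crosslinked libraries. The share over all genes at that cut was not computed. With positions that also lie in another gene of the strand left out, such as those in introns, the snoRNAs took 1.54% ± 0.00622 of nuclear conversions (SD, n = 2) and 20 had a position in both.

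**Figure D1:**
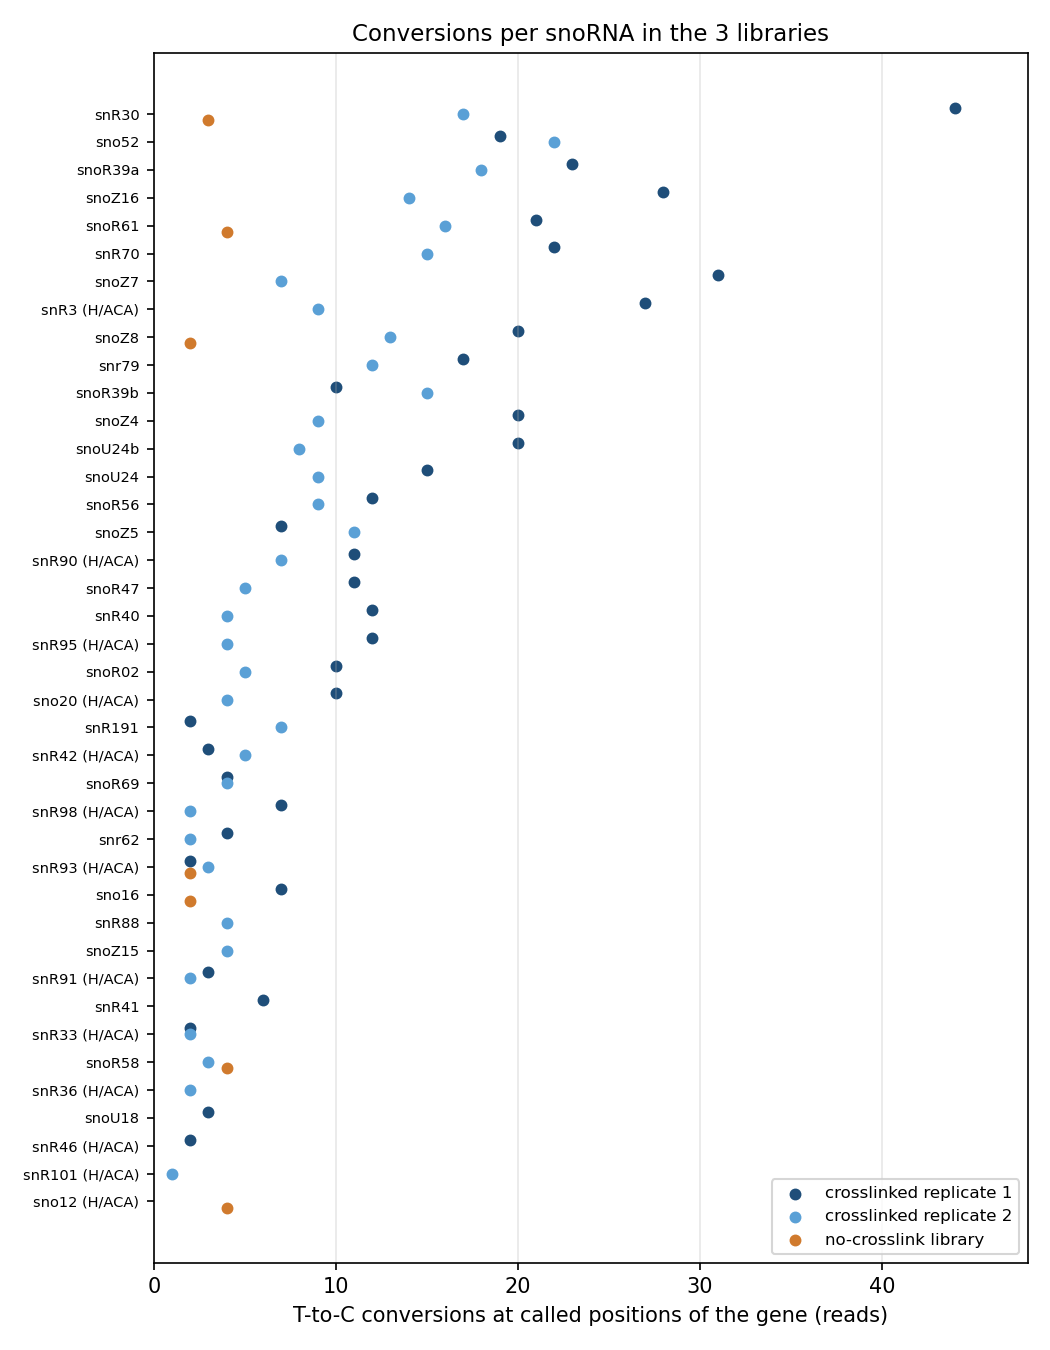
T-to-C conversions summed over the called positions of each snoRNA (horizontal axis, in reads) for the 40 snoRNAs with a called position in any library. Dark and light blue points are crosslinked replicates 1 and 2, and orange points are the no-crosslink library. A missing point means that no position was called. The highest value is 44, for snR30 in crosslinked replicate 1, and orange points reach 4 at most.

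The short snoRNAs with C/D-type letters held 269 of the 447 snoRNA conversions in crosslinked replicate 1 and 175 of the 274 in crosslinked replicate 2. Because the annotation names the class of few genes, 28 snoRNAs not named H/ACA were grouped by their letters, after the sequences had been seen. Each holds TGATGA with at most 1 mismatch in its first 25 nt and CTGA in its last 25 nt, on the sense strand. These had 54.3 called positions per 1000 T in crosslinked replicate 1 and 45.7 in crosslinked replicate 2, against 15.5 and 12.4 in the 19 snoRNAs named H/ACA. Of all nuclear conversions, the C/D-type group took 1.45% (1.29 to 1.63) and 1.64% (1.42 to 1.90) after crosslinking and 0.678% (0.311 to 1.47) without it. Outside ribosomal and transfer RNA these shares were 1.87% (1.66 to 2.10) and 2.08% (1.79 to 2.40) after crosslinking and 1.796% (0.826 to 3.86) without it. The excess of this group after crosslinking therefore differed between these totals. Both totals include, for the crosslinked libraries, positions of 1 conversion, which the no-crosslink library does not list. The H/ACA group took 0.426% and 0.384% of all nuclear conversions after crosslinking and 0.678% (0.311 to 1.47) without it. Outside ribosomal and transfer RNA it took 0.548% (0.440 to 0.682) and 0.486% (0.359 to 0.659) after crosslinking, below the 1.796% (0.826 to 3.86) without it. The class shares were not computed with a minimum of 2 conversions in every library. The crosslinked and no-crosslink values of each class thus rest on unlike thresholds. The no-crosslink value of each class rests on 6 conversions at 2 positions. A position in both crosslinked libraries was found in 16 of the 28 C/D-type snoRNAs and 9 of the 19 H/ACA snoRNAs. The C/D-type positions were read more deeply, with medians of 278 and 264 reads against 95 and 54.5 in H/ACA snoRNAs, and were converted at a lower share, with medians of 1.66% and 1.87% against 3.54% and 4.44%. The part of read depth in the difference between the classes was not tested. snoZ30, the only snoRNA the annotation names as C/D, had no called position in any library.

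Among the C/D-type snoRNAs, sno52 had 19 conversions in crosslinked replicate 1 and 22 in crosslinked replicate 2, with none called without crosslinking. It is named for the guide R52 and held 0.154% ± 0.0733 of conversions (SD, n = 2, here and for the other genes). The replicates shared the T at nt 38, with 12 of 810 and 4 of 347 reads converted, but its other 4 positions were called in 1 library each. snoR39a lies in an intron of rlp7, a ribosome biogenesis gene, and had 23 and 18 conversions. snoR39b, the second gene for the snR39 guide of ribosomal RNA, lies in an intron of rpl701 and had 10 and 15 conversions. In snoR39a nt 24 and nt 28 were called in both replicates, and in snoR39b no position was. In crosslinked replicate 2, nt 65 was called in snoR39a with 5 of 547 reads converted and in snoR39b with 4 of 425.

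snoZ16 had 28 conversions at 6 positions in crosslinked replicate 1 and 14 at 3 positions in crosslinked replicate 2. snR70, a guide for the small ribosomal subunit RNA in budding yeast, had 22 and 15 conversions over 5 positions in each library, 4 of them shared. It is the snoRNA with the most shared positions, and with snR41 and snR51b it comes from the primary transcript SPNCRNA.723. snR41 had 6 conversions in crosslinked replicate 1 and none called in crosslinked replicate 2, and snR51b had none. The members of that transcript thus differed in their calls, although they share a precursor.

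The snoZ transcript on chromosome I encodes snoZ8, snoZ7, snoZ5, snoZ4 and snoZ3 in that order. snoZ8 had 20 and 13 conversions after crosslinking and 2 without it. snoZ7 had 31 and 7, snoZ5 had 7 and 11, and snoZ4 had 20 and 9, all with none called without crosslinking. snoZ3 had no called position in any library. Between the mature RNAs, the snoZ transcript had 1 position with 1 conversion in each crosslinked library over 526 T.

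snr79 had the most reads at a single snoRNA position, 1485 at nt 26 of crosslinked replicate 1, of which 17 were converted. In crosslinked replicate 2 the same T had 7 of 518 reads converted. snoU24b lies in an intron of cpc2, the RACK1 gene, and snoU24 in an intron of spt20, which encodes a SAGA subunit; U24 guides methylation of the large ribosomal subunit RNA in other eukaryotes. snoU24b had 20 and 8 conversions and snoU24, which is annotated with 47 nt, had 15 and 9. snoR56 had 12 and 9 conversions at positions that differed between the replicates. None of these 4 had a position in the no-crosslink library.

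Outside the C/D-type group, snR30, snoR61 and snR3 had the most conversions in the crosslinked libraries. snR30 is U17, an H/ACA RNA of other yeasts that acts in cleavage of the ribosomal precursor; the annotation used here names no class for it. After crosslinking it had 44 conversions at 8 positions in replicate 1 and 17 at 5 positions in replicate 2, against 3 at 1 position without crosslinking. Its mean crosslinked share of 0.198% ± 0.0552 was the highest of the 57. Only nt 114 was shared, with 4 of 268 and 5 of 137 reads converted, and the most converted T, nt 107 with 13 of 301 reads in crosslinked replicate 1, was not called in crosslinked replicate 2. The single position of the no-crosslink library, nt 272, was called in neither crosslinked library.

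snR3, a box H/ACA RNA that guides pseudouridylation of the large subunit RNA in budding yeast, had 27 conversions in crosslinked replicate 1 and 9 in crosslinked replicate 2. It took 0.115% ± 0.0433 of conversions, the highest share of the snoRNAs named H/ACA. Its positions nt 61, nt 91 and nt 118 were shared, with 2.97%, 6.33% and 7.87% of reads converted in crosslinked replicate 1, and 3.17%, 3.70% and 3.85% in crosslinked replicate 2. The other H/ACA snoRNAs with a position in both libraries were snR90, snR95, sno20, snR42, snR98, snR93, snR91 and snR33, with 2 to 12 conversions in crosslinked replicate 1 and 2 to 7 in crosslinked replicate 2.

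snoR61 is annotated as an RNA of 653 nt and had 21 and 16 conversions in crosslinked replicates 1 and 2, against 4 without crosslinking. Its positions nt 155, nt 158 and the shared nt 505 lie in the letters TGATGA or directly after them. In snR90, which is named H/ACA, the shared nt 286 and its neighbour nt 289 do as well, while TGATGA further 5′ in snR90 holds no called T. These letters are those of box C, but here they lie far from the annotated 5′ ends, and they were picked out after the positions had been seen.

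Exact positions recurred between the replicates more often in snoRNAs than over all calls. The crosslinked libraries shared 26 snoRNA positions in 19 genes, which is 31.0% of the snoRNA positions of crosslinked replicate 1 and 37.1% of those of crosslinked replicate 2. Over all nuclear positions the shares were 4.21% and 5.82%. Most nuclear calls rest on a single conversion, which few snoRNA calls do, and the part of that difference was not tested. The 26 positions held 170 of the 447 conversions in crosslinked replicate 1 (38.0%) and 106 of the 274 in crosslinked replicate 2 (38.7%). Within 3 nt of a position of crosslinked replicate 1 in the same gene lay 34 of the 70 positions of crosslinked replicate 2. These include the 26 exact matches, and the share within 3 nt over all nuclear positions was not computed. With calls of p at most 0.001 alone, 7 positions were shared, and the share over all nuclear positions at that cut was not computed.

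No difference in the converted share between the replicates was called at any of the 26 shared positions. The test was a two-sided Fisher exact test on converted and unconverted reads. With Benjamini-Hochberg adjustment over all shared nuclear positions, 0 of 276 were called different, or 0%. At an unadjusted p under 0.05 there were 0 of 26 snoRNA positions and 16 of all 276. The smallest p among snoRNAs was 0.0763, at snoZ16 nt 66 (adjusted p 0.874, Fisher exact), where 4 of 172 reads were converted in crosslinked replicate 1 and 6 of 79 in crosslinked replicate 2. The converted share was higher in crosslinked replicate 2 at 20 of the 26 positions, and over all shared nuclear positions at 202 of 276, against 65 that were higher in crosslinked replicate 1. The test compares the reads of these libraries and not conditions. With few conversions at each position it can miss a difference, so the lack of calls does not show equal shares.

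The T at nt 55 of snoZ8 was the most converted of the well-read shared positions. It had 13 of 125 reads converted in crosslinked replicate 1, or 10.4% (6.18 to 17), and 11 of 52 in crosslinked replicate 2, or 21.2% (12.2 to 34). snR93 nt 31 reached 25% in crosslinked replicate 2, but from 3 of 12 reads (8.89 to 53.2), and had 5.26% in crosslinked replicate 1, from 2 of 38. At the low end, snoU24b nt 42 had 0.916% and 1.03%, and snoR39a nt 28 had 1.23% and 0.901%. Over the 26 positions the median was 2.37% in crosslinked replicate 1 and 3.68% in crosslinked replicate 2.

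**Figure D2:**
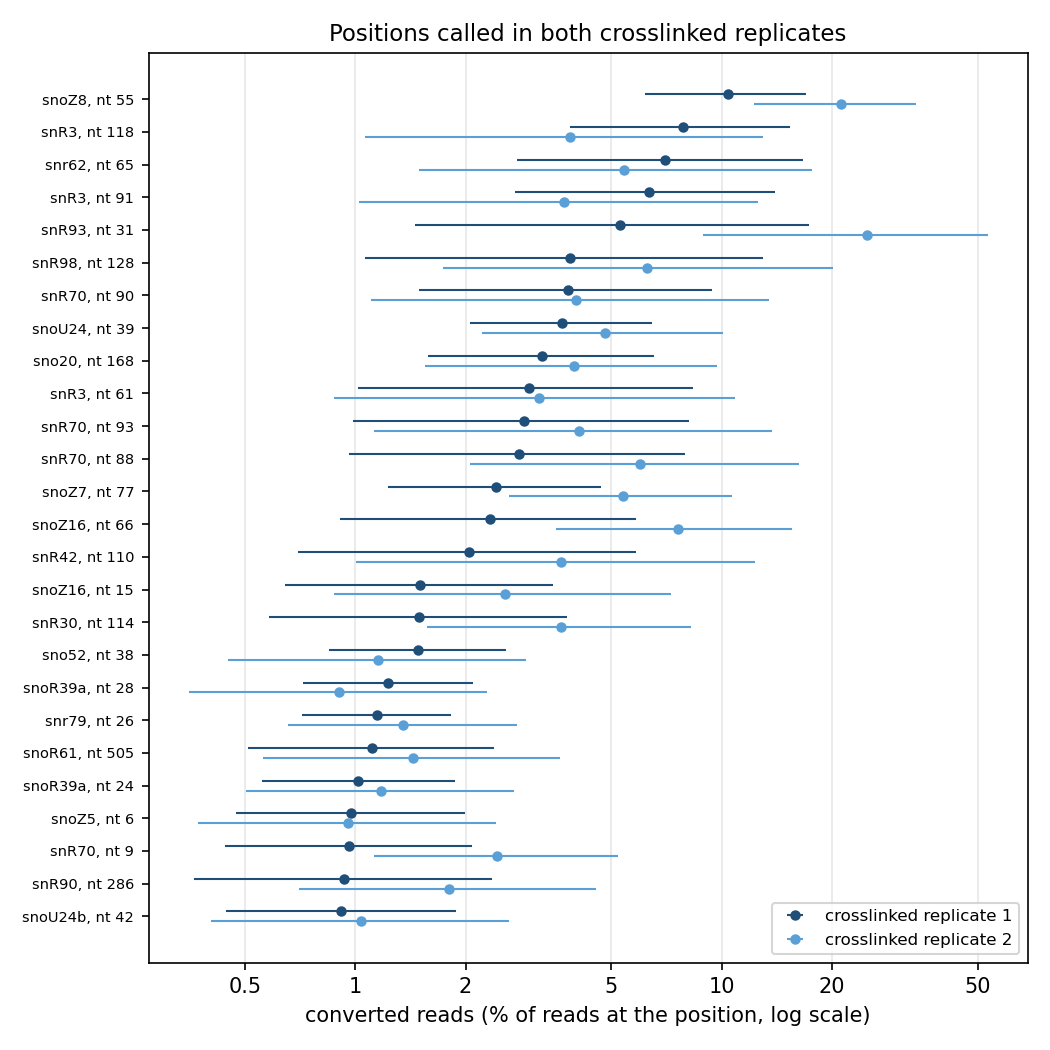
Converted reads as a percentage of reads (horizontal axis, log scale) at the 26 snoRNA positions called in both crosslinked libraries, with 95% Wilson intervals as bars. Positions are named by snoRNA and by nucleotide from its 5′ end. The intervals of the replicates overlap at each of the 26, and values run from 0.901% to 25%.

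No snoRNA position was called both in the no-crosslink library and in a crosslinked library. The no-crosslink library had 127 nuclear positions, of which 41 recurred in crosslinked replicate 1 and 34 recurred in crosslinked replicate 2. None of these lay in the snoRNAs examined here, so the Fisher exact test of crosslinked against not crosslinked reads had 0 snoRNA positions to test. Because most nuclear positions of the no-crosslink library did not recur either, the lack of overlap at 7 snoRNA positions does not set snoRNAs apart. Whether their overlap differs from that of other RNAs was not tested. The 7 snoRNA positions of the no-crosslink library lay in 7 snoRNAs. They were snoR61 nt 573 with 4 of 321 reads converted, sno12 nt 158 with 4 of 206, snoR58 nt 20 with 4 of 144, snR30 nt 272 with 3 of 166, snoZ8 nt 4 with 2 of 34, sno16 nt 70 with 2 of 50 and snR93 nt 81 with 2 of 14. In snoR61 the nearest crosslinked position was nt 576, 3 nt further on, called in crosslinked replicate 2. Of these 7 snoRNAs, snR30, snoR61, snoZ8 and snR93 also had positions in both crosslinked libraries, sno16 in crosslinked replicate 1 and snoR58 in crosslinked replicate 2.

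The converted T of a snoRNA was most often preceded by A. The base before it was A at 53 of 84 positions in crosslinked replicate 1 (63.1%), at 32 of 70 in crosslinked replicate 2 (45.7%) and at 3 of 7 without crosslinking, whereas A precedes 28.2% of all T of the same snoRNAs. C came before 3.57% and 8.57% of the crosslinked positions, against 17.7% of all T. Among positions of at least 2 conversions, A came before 62.7% and 46.4% of those in snoRNAs and before 40.03% and 36.2% of nuclear positions outside these snoRNAs. The bases GA came before 17 of 84 and 16 of 70 snoRNA positions (20.2% and 22.9%), before 10 of the 26 shared ones (38.5%), before 0 of 7 without crosslinking, and before 6.70% of all snoRNA T. Outside snoRNAs they came before 11.1% and 10.2% of positions with at least 2 conversions. The replicates differ in the share with A before, so its size is uncertain, and these counts were made after the data had been seen.

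Positions were also set against the letters of the boxes. Windows were the motif bases and 2 nt on each side, in the sense strand, with overlapping matches merged. Over both classes, such windows held 15.3% ± 0.498 of the snoRNA conversions in the crosslinked libraries (SD, n = 2), beside 14.2% of the T of these snoRNAs. In the 38 snoRNAs not named H/ACA, TGATGA windows held 7.07% and 9.87% of conversions in the crosslinked libraries, against 4.77% of T, and CTGA windows held 4.35% and 3.00%, against 10.4% of T. TGATGA occurred in 20 and CTGA in 32 of these 38 RNAs, while 3.93% and 23.7% of genomic windows of 85 nt hold them. In H/ACA snoRNAs the ANANNA windows held 22.8% and 31.7% of conversions, against 11.5% of T, from 18 of 79 and 13 of 41 conversions. These lay at only 5 of 20 and 4 of 16 called positions. The windows at a final ACA held 7 of 79 conversions in crosslinked replicate 1, those of snR3 nt 164, and 0 of 41 in crosslinked replicate 2. With the motif bases alone the combined share was 7.30%, and with 5 nt on each side it was 27.1%. A match of letters is not a functional box.

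**Figure D3:**
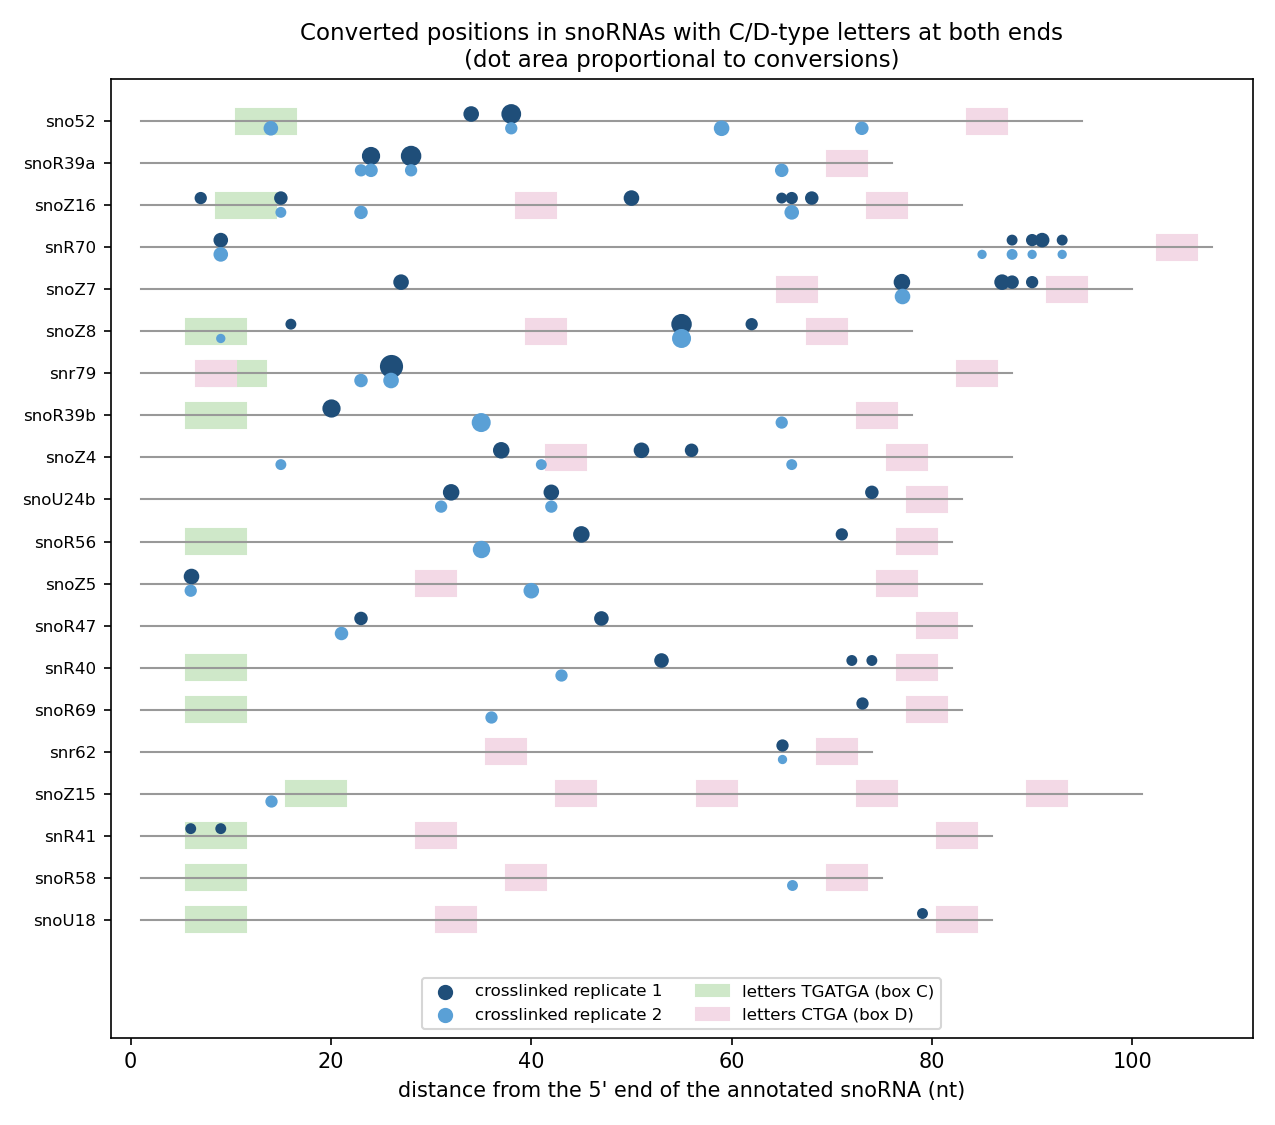
Called positions along the 20 C/D-type snoRNAs with a crosslinked position (horizontal axis, nt from the 5′ end). Dark and light blue dots are crosslinked replicates 1 and 2, and dot area is proportional to conversions. Green and pink blocks mark the letters TGATGA and CTGA. The largest dots of snr79 (nt 26, 17 and 7 conversions) and snoZ8 (nt 55, 13 and 11 conversions) lie at the same place in both libraries, outside the blocks.

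Each snoRNA was also split into a 5′, a middle and a 3′ segment of equal length. In C/D-type snoRNAs the 3′ segments had 68.7 called positions per 1000 T in crosslinked replicate 1, against 44.4 in the 5′ and 48.2 in the middle segments. Crosslinked replicate 2 had 44.7 per 1000 T in the 3′, 48.1 in the 5′ and 44.2 in the middle segments. The excess of the 3′ segments was therefore seen in 1 of the 2 libraries. In H/ACA snoRNAs the middle segments had 24.4 and 14.7 per 1000 T in crosslinked replicates 1 and 2, from 10 and 6 positions. The 3′ segments had 13.6 in each, from 6 and 6 positions, and the 5′ segments 9.07 in each, from 4 and 4. In crosslinked replicate 2 the middle and 3′ segments thus held equal numbers of positions.

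The calls ended close to the bounds of the mature RNAs. Mature snoRNAs had 30.4 and 25.4 called positions per 1000 T after crosslinking and 2.54 without it. The 200 nt upstream had 2.72 and 1.98 after crosslinking, and the 200 nt downstream 1.39 and 1.85, with 0 positions in either flank without crosslinking. Most of the upstream calls lie in other annotated genes, among them mrp1 upstream of snoZ16 and the host gene spt20 upstream of snoU24. With mRNA exons left out, 10 of the 11 and 7 of the 8 upstream positions remained, at 2.92 and 2.05 per 1000 T. That step takes out exons of protein-coding genes only, so calls in mrp1 and spt20 are among those that remained. The parts of the 7 primary transcripts outside mature snoRNAs, with 1302 T, had 0 called positions with crosslinking or without it. With bounds extended by 20 nt, 31 instead of 30 snoRNAs had a position in both crosslinked libraries. The antisense strand of the snoRNAs had 0.866 called positions per 1000 T in each crosslinked library and none without crosslinking.

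**Figure D4:**
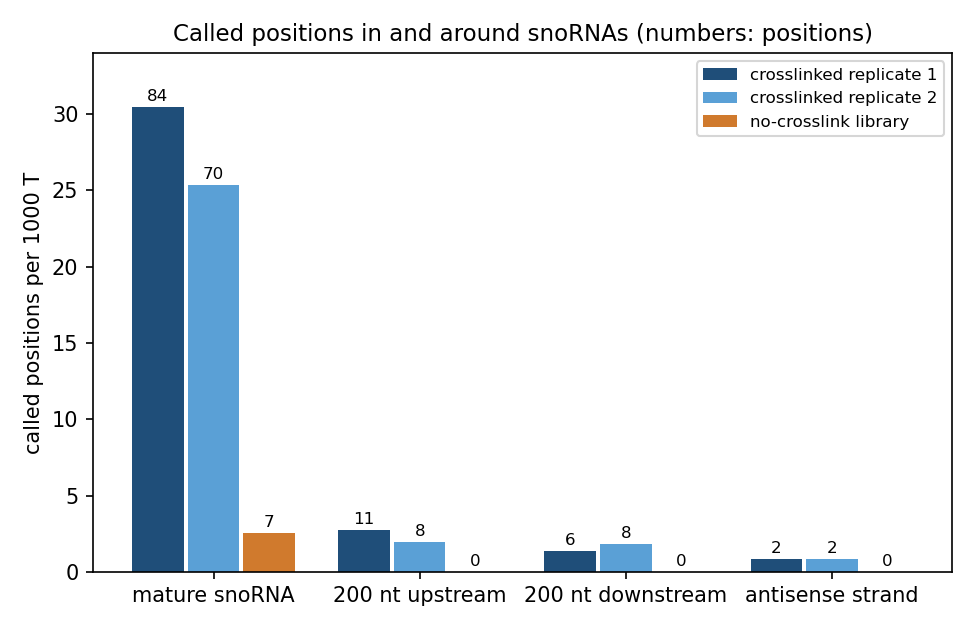
Called positions per 1000 T (vertical axis) in mature snoRNAs, in 200 nt on either side on the sense strand, and on the antisense strand. Bars are crosslinked replicate 1, crosslinked replicate 2 and the no-crosslink library, with the number of positions above each bar. Mature snoRNAs stand at 30.4, 25.4 and 2.54 per 1000 T, and flanks of crosslinked libraries stay at 2.72 or below.

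In the 12 snoRNAs that lie in introns of protein-coding genes, 12 and 16 positions were called in the crosslinked libraries, with 84 and 69 conversions, and 1 position with 4 conversions without crosslinking. Of these snoRNAs, 6 had a position in both crosslinked libraries. Outside the snoRNA, 7 of the 12 hosts were called in both crosslinked libraries, beside 29.9% of all protein-coding genes, and the other 5 in 1 crosslinked library. snoU24 had 15 and 9 conversions, and its host spt20 had 39 and 17 outside it. snoU24b had 20 and 8, and its host cpc2 had 32 and 10 outside it. snoR39a had 23 and 18, and its host rlp7 had 2 and 3 outside it. snoR54 had none called, while its host gua1 had 12 and 11 conversions. snoR38 likewise had none called, while its host SPAC29A4.02C had 16 and 6. Calls in a host gene outside the snoRNA thus occurred with and without calls in the snoRNA of its intron. Reads from an unspliced host and from the excised snoRNA cannot be told apart inside the snoRNA.

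The authors' occupancy divides the conversions by a whole number per position, read here as the depth of a reference library that the sources do not name. At snoRNA positions that reference depth ran from 7, at snr62 nt 65, to 99994, at snR30 nt 235. The 5 distinct positions at 90000 or more were 4 in snR30 and 1 in snR95, and the highest value over all nuclear positions was 100006. The median reference depth was 424 and 472 for C/D-type positions in crosslinked replicates 1 and 2, against 2238 and 2248.5 for H/ACA positions, whereas PAR-CLIP reads were higher for the C/D-type. The median occupancy of C/D-type positions was 0.0167 and 0.0122, against 0.00266 and 0.00113 for H/ACA positions. Over all snoRNA positions it was 0.00871 and 0.00705, next to 0.00871 and 0.00719 for all nuclear positions. By occupancy, snr62 nt 65 was the highest, with 0.571 and 0.286, on a reference depth of 7 reads. How the reference library was made is not stated, so its own differences between classes enter these ratios.

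**Figure D5:**
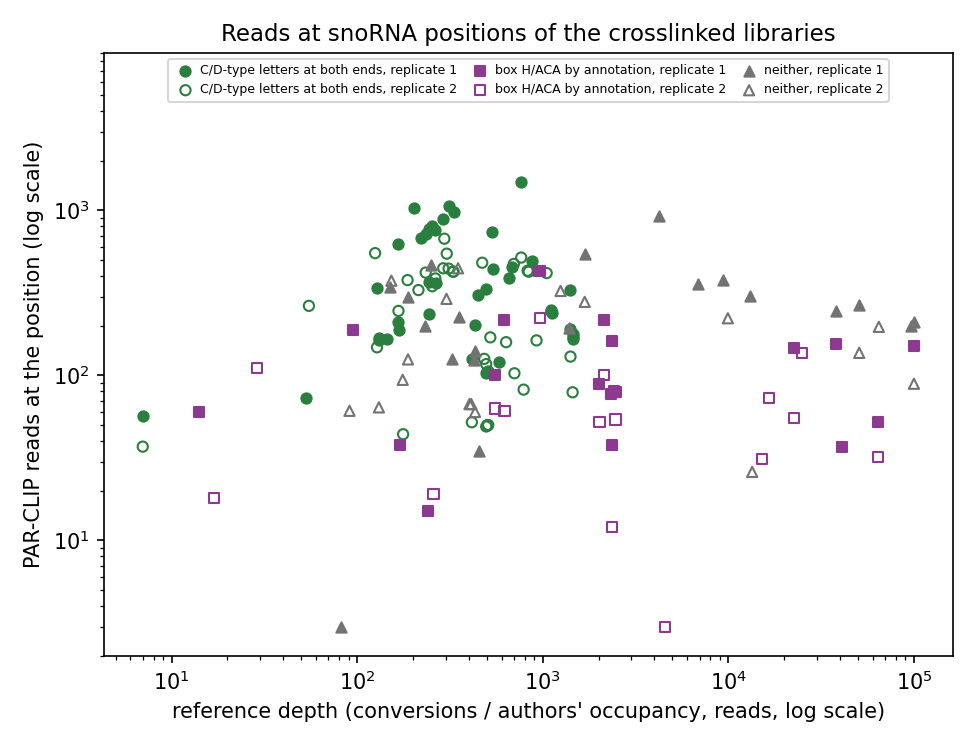
PAR-CLIP reads at each called snoRNA position (vertical axis, log scale) against the reference depth there (horizontal axis, log scale). Circles are C/D-type snoRNAs, squares H/ACA snoRNAs and triangles the others; filled symbols are crosslinked replicate 1 and open symbols crosslinked replicate 2. All circles lie at a reference depth of 1462 or less, while squares and triangles reach 99817 and 99994.

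Other RNA classes give a scale for these densities. Beside the 30.4 and 25.4 called positions per 1000 T of the snoRNAs in the crosslinked libraries, the 2 U3 copies had 29.3 and 43.9, the 6 snRNA genes 148 and 111, and the 171 transfer RNA genes 62.0 and 49.8. C/D-type snoRNAs, at 54.3 and 45.7, were close to transfer RNAs. Without crosslinking, the snoRNAs had 2.54 per 1000 T, the U3 copies 4.88 from 1 position, transfer RNAs 11 and the snRNAs 0.

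The mRNAs of proteins that build, process or form snoRNA particles were also counted. Of 16 listed genes, 4 had a called sense position in both crosslinked libraries (25%), near the 29.9% of all protein-coding genes. These were fib1, the fibrillarin methyltransferase, nop58, its C/D partner, cbf5, the pseudouridine synthase of H/ACA particles, and pac1, the double-strand ribonuclease that processes precursors. fib1 had 4 and 5 conversions, nop58 had 10 and 2, cbf5 had 5 and 2, and pac1 had 1 and 1. nop56, snu13, gar1, nhp2, rvb1, tgs1, rrp6 and dhp1 had positions in 1 crosslinked library, and nop10, naf1, shq1 and rvb2 in none. gar1 was the one with a position in the no-crosslink library, with 2 of 14 reads converted.

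The 17 snoRNAs without a called position in any library were of both kinds. The H/ACA ones were snR5, snR10, snR92, snR94, snR96 and snR97. The others were snoU14, which acts in cleavage of the ribosomal precursor in budding yeast, snoZ3, snoZ30, snoR38, snoR54, snoR54b, snoR68, snoR69b, snR51b, SPNCRNA.498 and SPNCRNA.1709. Of the 28 C/D-type snoRNAs, 8 had no crosslinked position, and of the 19 H/ACA snoRNAs, 7 had none, counting sno12, which was called without crosslinking alone.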

How the data were processed

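PAR-CLIP tables of 2 crosslinked Clr3-TAP libraries and 1 no-crosslink library were used. The authors' deposited counts are conversions and reads at each called position. The authors' deposited p-value is that of each call, and the deposited occupancy ratio is conversions over a whole number, within 0.01, at all 161 snoRNA calls. Bowtie 1.1.1, SAMtools and build ASM294v2 are named in the submitters' processing notes; the caller is not stated there. Nuclear positions were all at a T of RefSeq ASM294v3 (6560, 4742 and 127), whose annotation was used; mitochondrial positions were left out.

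Shares are of 18539, 10672 and 885 nuclear conversions, with 95% Wilson intervals. Fisher exact tests per position (scipy 1.17.1) were adjusted by Benjamini-Hochberg over all nuclear positions called in both libraries, with a threshold of 0.05. The test was checked on simulated data. The members and lists were chosen with earlier results of these data known. Named were the 15 snoRNAs with the highest mean share among those called in both crosslinked libraries, those called without crosslinking, shared positions and listed protein genes; others were named after their values were seen. The C/D-type group, class shares without ribosomal and transfer RNA, the bases before T, segments, flanks, hosts, antisense calls and sequences shown were chosen after the data were seen. Alternatives were stricter calls, other bounds, denominators and windows, and leaving out each replicate.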

Additional observations from a re-analysis of the deposited data

Results flagged for a closer look

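Conversions on the strand opposite to a snoRNA lie outside the comparisons above, and 3 values exceeded the 0 found there in the no-crosslink library. Opposite to snR5, 5 conversions were called in crosslinked replicate 1 (5 of 182 reads) and 5 in crosslinked replicate 2 (3 of 77 and 2 of 68 reads at 2 positions), at different positions in the replicates. Opposite to snR10, 3 conversions were called in crosslinked replicate 1 (3 of 91 reads), at a position that also lies in the non-coding gene SPNCRNA.7137, and none in crosslinked replicate 2. Neither snoRNA had a called position on its annotated strand. The sequence of the strand that was called opposite to snR5 is shown from RefSeq ASM294v3, with the called T in capitals.
snR5 opposite strand, II:2266028-2266169, minus strand: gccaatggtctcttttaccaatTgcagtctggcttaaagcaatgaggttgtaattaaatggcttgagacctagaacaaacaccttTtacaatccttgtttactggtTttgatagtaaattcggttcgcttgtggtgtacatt
An ACA ending in the last 6 nt, the end letters of an H/ACA RNA, was found on the annotated strand of 14 of the 19 H/ACA snoRNAs and on the opposite strand of 4; snR5, snR10 and snR96 had it on the opposite strand alone. Among the 38 other snoRNAs it was found on the annotated strand of 5 and on the opposite strand of 4. The window was changed after the first counts were seen: an ACA exactly 3 nt from the end gave 9 and 2 genes, without snR5 on the opposite strand, and an ACA within the last 6 nt gave 11 and 4. On which strand these RNAs are made was not tested.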

How the results depend on the processing

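None of these values is a signed difference, so no direction could reverse. Which library or class was higher did change: the snoRNA share was higher in the crosslinked libraries than without crosslinking over all nuclear conversions, within the counting interval, and lower without ribosomal and transfer RNA, and the C/D share was below the H/ACA share by annotation and above it by letters. The snoRNA share (2.49%) was 2.73% with calls of p at most 0.001, 1.54% without positions in another gene of the strand, 3.27% with at least 2 conversions, 3.53% with at least 20 reads and 3.18% with ribosomal and transfer RNA out of the total. Under 4 of these settings the H/ACA share (0.405%) was 0.481%, 0.525%, 0.517% and 0.517% (p at most 0.001, at least 2 conversions, at least 20 reads, no ribosomal and transfer RNA), and 0.661% with snR30, sno16 and snR191 added, an alternative chosen after seeing the data. The C/D share was 0% by annotation and 1.55% by letters, also chosen after seeing the data. The box share (15.3%) was 7.30% and 27.1% with the motif alone and with 5 nt, 13.3% at p at most 0.001, 20.8% without positions in another gene and 14.8% with at least 20 reads. At p at most 0.001, 15 genes (against 30) and 7 shared positions (against 26) were counted. The cause was not tested. Leaving out a replicate gave 2.41% to 2.57% for the snoRNA share, 0.384% to 0.426% for H/ACA, 0% for C/D, 14.99% to 15.7% for boxes. With 1 replicate left out, the count of genes is that of the single remaining library, 34 to 35, and not of genes called in both. Of the 15 named genes' shares, 8 moved by more than the replicate SD at p at most 0.001, 7 without positions in another gene, 11 with at least 2 conversions, 13 with at least 20 reads and 10 with the smaller total. Holm adjustment and at least 20 reads in both libraries also gave 0 positions called different. No paired analysis was possible because the groups compared share fewer than 2 replicate numbers, with 1 library without crosslinking. Unknown library depth limits every count.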
